A study of Mus musculus with 15 samples.

Results

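The transcripts of 6 genes that move iron into, out of and within the cell, or sense how much of it there is, were followed in a mouse melanocyte line under low oxygen and Hif1a knockdown. They are the uptake genes Tfrc, Slc11a2 and Steap3, the exporter Slc40a1 and the sensors Ireb2 and Aco1. The genes were chosen by name, as those whose probe sets the platform annotation ties to exactly 1 gene symbol. All 6 were found, each with 1 probe set, among 22180 genes measured, so no choice between probe sets was needed. In RefSeq's build GRCm38.p6 (the files name no build) Slc40a1 spans chr1:45908070-45926532, Steap3 chr1:120226414-120271081, Aco1 chr4:40143265-40199009, Ireb2 chr9:54862658-54912534, Slc11a2 chr15:100387898-100424209 and Tfrc chr16:32608896-32632794.

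The series holds 15 one-colour Affymetrix arrays in 5 groups of 3, which its design text calls biological triplicates. All came from melan-Ink4a-Arf-1 (melan-a), an immortalized melanocyte line from Cdkn2a tm1RDp/tm1RDp mice, so every group lacks normal Cdkn2a and all groups derive from 1 line. All cultures also received 10% serum, 200 nM 12-O-tetradecanoylphorbol 13-acetate (a phorbol ester) and 200 pM cholera toxin at 37 °C. The normoxia group was kept at about 21% oxygen and 10% CO2. The remaining 4 groups spent 24 h at 1% oxygen, 5% CO2 and 94% nitrogen, so the effects of oxygen and CO2 cannot be told apart. One of these 4 is labelled hypoxia control and another hypoxia negative control, and the labels do not say what either received. The other two, Si1 and Si6, were transfected with 1 of 2 siRNAs (small RNAs that direct the breakdown of a matching mRNA) against Hif1a 24 h before hypoxia. Hif1a encodes the oxygen-regulated subunit of the transcription factor HIF-1.

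Iron reaches most cells bound to transferrin, which the transferrin receptor (Tfrc) carries into endosomes. There the reductase Steap3 turns ferric into ferrous iron, and the transporter Slc11a2 (DMT1) passes it to the cytosol. Ferroportin (Slc40a1) is the known exporter of iron from animal cells. Aco1 and Ireb2 encode the iron regulatory proteins IRP1 and IRP2, which bind hairpins called iron-responsive elements (IREs) in mRNAs when iron is scarce, protecting Tfrc mRNA from decay and blocking the translation of ferritin and ferroportin mRNAs. IRP1 also works as a cytosolic aconitase when it holds an iron-sulfur cluster. Pigment cells use iron like other dividing cells, for respiration, DNA synthesis and iron-sulfur and heme proteins.

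Tfrc is known as a target of HIF-1, which recognises the core ACGTG or GCGTG, and its start region is therefore shown. The window runs from 120 bases before to 10 bases after a RefSeq start site of Tfrc (build GRCm38.p6, plus strand, chr16:32608776-32608905), and capitals mark every core on either strand.

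Tfrc start region: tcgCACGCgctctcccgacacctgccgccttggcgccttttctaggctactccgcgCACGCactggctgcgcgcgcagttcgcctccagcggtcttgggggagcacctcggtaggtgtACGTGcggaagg

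The stretch holds 3 cores: GCGTG on the minus strand (read as CACGC above) beginning 117 and 64 bases before the start site, and ACGTG on the plus strand beginning 2 bases before it. RefSeq start windows, each reaching from upstream of a start site to just past it, were at hand for 4 of the 6 genes, 8 windows in all. ACGTG was present on some strand in both Tfrc windows, which overlap and share it, and in none of the windows of Steap3, Aco1 and Ireb2. GCGTG was present in both Tfrc windows and in 1 Steap3 window, beginning 45 bases before its start site on the minus strand, and in none of Aco1 and Ireb2. Of all 32851 windows of this length, 19.6% held ACGTG, 32.4% held GCGTG and 43.8% held either on some strand. A match describes the sequence and is not a measured binding site.

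Hif1a mRNA, the siRNA target, checked the labels. The brighter of its 2 probe sets had a log2 intensity of 8.59 to 8.98 on the 6 siRNA arrays and 10.30 to 10.68 on the other 9. The defining melanocyte markers Mitf, Tyr, Tyrp1, Dct, Pmel, Mlana, Sox10, Kit, Ednrb and Slc45a2 were all measured, with means over all arrays of 8.46 (Kit) to 13.06 (Tyrp1). Their average per array was 11.76 to 11.83 in normoxia, 11.44 to 11.49 in the hypoxia control, 10.82 to 10.85 in the negative control, 10.45 to 10.53 in Si1 and 11.22 to 11.30 in Si6, so the lineage markers themselves differed between the groups. Of the other cell types' lists, the average of the 5 fibroblast markers was highest in normoxia (6.41 to 6.49) and lowest in Si1 (5.94 to 6.08). It was 6.16 to 6.25 in the hypoxia control, 6.14 to 6.34 in the negative control and 6.17 to 6.24 in Si6, which overlapped. Col1a1 among them had group means of 9.35 in normoxia and 7.96 in Si1. The other fibroblast markers had narrower ranges of group means: Col1a2 7.12 to 7.64, Pdgfra 5.45 to 5.73, Dcn 5.13 to 5.37 and Lum 4.21 to 4.47. The 6 macrophage markers averaged 5.46 to 5.63 over all arrays, 4 keratinocyte markers 6.06 to 6.29 and 4 endothelial markers 5.80 to 6.10. The deposited table has no detection calls, so no marker was called absent. In bulk RNA, fewer cells that express a gene and less of its RNA per cell cannot be told apart. Levels below are log2 intensities as deposited, 1 unit being a 2-fold change. Fold changes carry their standard error from limma after ±, intervals are 95%, and adjusted p-values come from the same fit, with Benjamini-Hochberg adjustment over all 22180 genes and a threshold of 0.05.

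**Figure D1:**
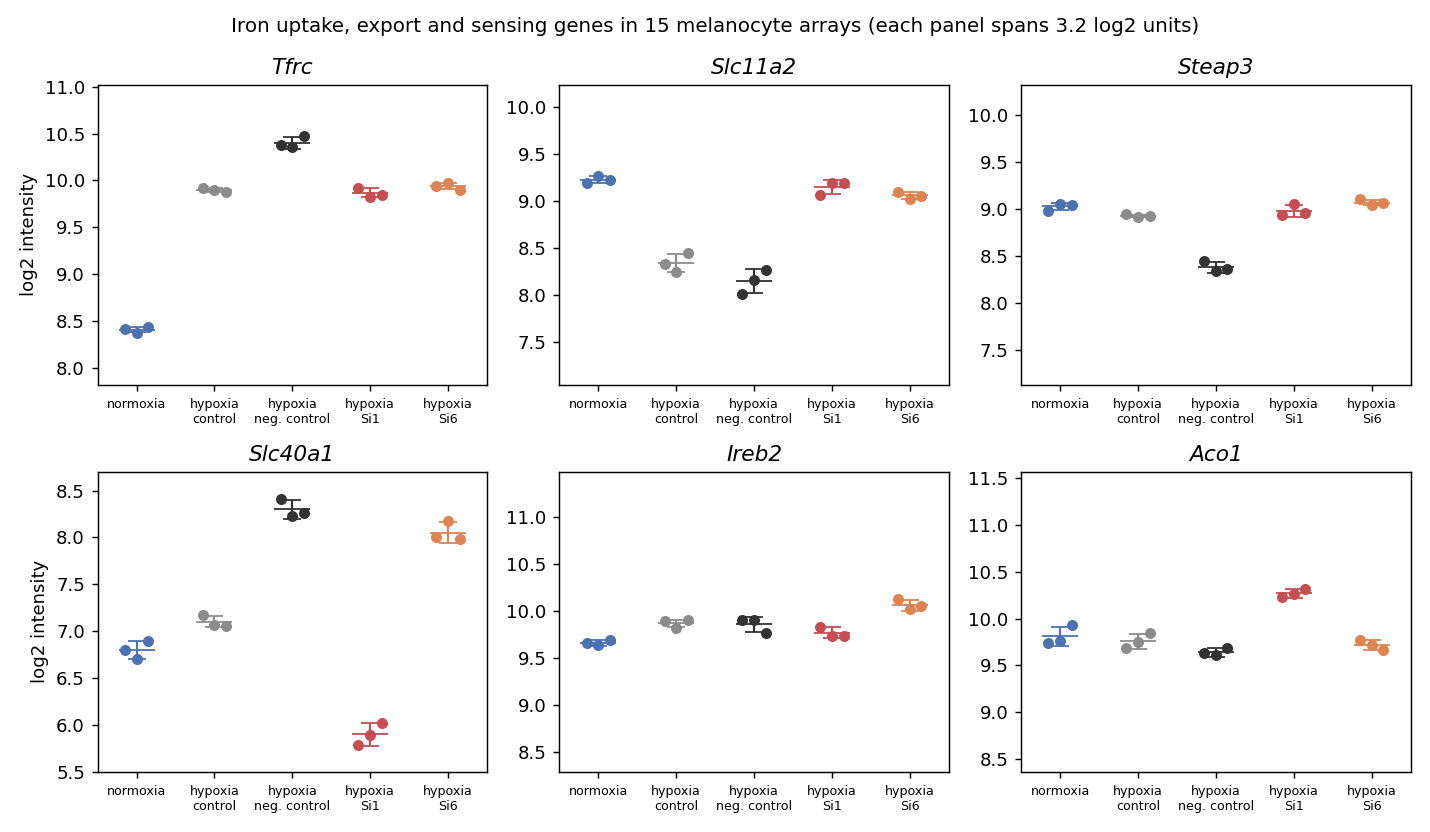
Log2 intensity of each of the 6 genes on all 15 arrays (points), with the group mean and SD (bars, n = 3); every panel spans the same number of log2 units. Tfrc was lowest in normoxia (8.37 to 8.44), Slc11a2 was lowest in both hypoxic controls (8.01 to 8.45), and Slc40a1 ranged from 5.79 in Si1 to 8.41 in the negative control.

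In the hypoxia control against normoxia, 3 of the 6 genes rose (Tfrc, Slc40a1 and Ireb2), 1 fell (Slc11a2) and 2 did not pass the test (Steap3 and Aco1). Of all genes tested, 9.87% were called higher and 11.2% lower in this comparison. In the negative control against normoxia the same 3 rose, while Slc11a2 and Steap3 fell and Aco1 did not pass, against 14.6% of all genes called higher and 15.7% lower. These comparisons share the normoxia arrays and are not independent of each other. Their median log2 fold changes over the 6 genes were 0.08 and 0.02, beside 0.00 over all genes in each.

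Tfrc gave the largest hypoxic change of the 6. Its log2 intensity was 8.42, 8.37 and 8.44 on the normoxia arrays and 9.92, 9.90 and 9.88 on those of the hypoxia control. In the negative control it was 10.38, 10.36 and 10.47. The 3 groups did not overlap, with normoxia lowest and the negative control highest. Tfrc rose by 1.49 ± 0.05 in the hypoxia control (2.81-fold, adjusted p = 1.1e-11), and only 0.243% of genes rose more. The negative control stood 1.99 ± 0.05 above normoxia (3.97-fold, adjusted p = 3.1e-13) and 0.50 ± 0.05 above the hypoxia control (adjusted p = 4.4e-06).

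With either Hif1a siRNA, Tfrc lay at the level of the hypoxia control rather than at that of normoxia. The arrays read 9.92, 9.82 and 9.85 in Si1 and 9.94, 9.97 and 9.90 in Si6. These values overlap those of the hypoxia control and lie below every array of the negative control. Against the negative control Tfrc fell by 0.53 on the log2 scale in Si1 (SE 0.05, adjusted p = 3.9e-07) and by 0.46 in Si6 (SE 0.05, adjusted p = 3.5e-06). Against normoxia it was still higher, by 1.45 ± 0.05 in Si1 (2.74-fold, adjusted p = 4.7e-12) and 1.53 ± 0.05 in Si6 (2.89-fold, adjusted p = 1.6e-11). Si1 and Si6 did not differ detectably (-0.08, interval -0.18 to 0.03, adjusted p = 0.327). The siRNA groups were not tested against the hypoxia control.

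Slc11a2, the transporter that carries ferrous iron out of endosomes, moved the opposite way to Tfrc. It read 9.19, 9.27 and 9.23 in normoxia, 8.33, 8.24 and 8.45 in the hypoxia control and 8.01, 8.16 and 8.26 in the negative control. Every normoxia array lay above every array of both hypoxic controls. Slc11a2 fell by 0.89 on the log2 scale in the hypoxia control (SE 0.07, 53.9% of the normoxia level, adjusted p = 2.1e-07) and by 1.09 in the negative control (SE 0.07, 47.1%, adjusted p = 9.4e-09). The difference between these controls was -0.19 ± 0.07 and did not pass (adjusted p = 0.078). It passed without negative control replicate c (-0.25, adjusted p = 0.029), without hypoxia control replicate b (-0.24, adjusted p = 0.049) or with trend and robust variance settings (adjusted p = 0.042).

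Both siRNAs were accompanied by Slc11a2 levels near those of normoxia. The arrays read 9.07, 9.19 and 9.19 in Si1 and 9.10, 9.02 and 9.05 in Si6, above all 6 arrays of the hypoxic controls. Si1 overlapped normoxia, while every Si6 array lay below every normoxia array. Against the negative control Slc11a2 rose by 1.00 ± 0.07 in Si1 (2.01-fold, adjusted p = 1.6e-08) and by 0.91 ± 0.07 in Si6 (1.88-fold, adjusted p = 1.0e-07). Against normoxia the remaining difference did not pass, at -0.08 in Si1 (interval -0.23 to 0.07, adjusted p = 0.403) and -0.18 in Si6 (interval -0.33 to -0.03, adjusted p = 0.069). Without the dimmest 25% of genes, or with trend and robust settings, the latter passed (adjusted p = 0.047 and 0.042). Si1 and Si6 differed by 0.10 (interval -0.05 to 0.24, adjusted p = 0.387). Slc11a2 is known to have mRNA forms with and without an IRE, and a single probe set cannot separate them.

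Steap3, the endosomal ferrireductase, stood apart in the negative control alone among the 5 groups. It read 8.98, 9.05 and 9.04 in normoxia and 8.95, 8.92 and 8.93 in the hypoxia control. The negative control arrays read 8.45, 8.34 and 8.36, below all other 12 arrays. The hypoxia control differed from normoxia by -0.09 (interval -0.20 to 0.01, adjusted p = 0.239), which did not pass. The negative control fell by 0.55 against the hypoxia control (SE 0.05, adjusted p = 1.8e-06) and by 0.64 against normoxia (SE 0.05, adjusted p = 7.8e-08). With the siRNAs it read 8.94, 9.05 and 8.96 in Si1 and 9.11, 9.04 and 9.06 in Si6, which overlap normoxia. Against the negative control these were rises of 0.60 ± 0.05 (adjusted p = 1.2e-07) and 0.69 ± 0.05 (adjusted p = 6.3e-08). Against normoxia they were at -0.04 (adjusted p = 0.539) and 0.04 (adjusted p = 0.58), so the siRNA groups differed from the negative control and not detectably from normoxia.

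Slc40a1, the iron exporter ferroportin, had the widest range of the 6, with group means spanning 2.40 log2 units. Normoxia read 6.80, 6.70 and 6.90, the hypoxia control 7.17, 7.07 and 7.06, and the negative control 8.41, 8.23 and 8.26. These 3 groups rose without overlap, and the step between the hypoxic controls was larger than the step from normoxia to the hypoxia control. The latter was 0.30 ± 0.08 (1.23-fold, adjusted p = 0.011) and was lost without hypoxia control replicate a (0.26, adjusted p = 0.053) or normoxia replicate b (0.25, adjusted p = 0.058). The negative control lay 1.2 ± 0.08 above the hypoxia control (2.30-fold, adjusted p = 8.3e-08) and 1.5 ± 0.08 above normoxia (2.83-fold, adjusted p = 8.7e-10). Only 0.0947% of genes rose more between the hypoxic controls.

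The siRNAs parted on Slc40a1 more than on any other of the 6 genes. The arrays read 5.79, 5.89 and 6.02 in Si1 and 8.0, 8.18 and 7.98 in Si6. Si1 was below every other array of the series, including normoxia, whereas Si6 lay just under the negative control and above the hypoxia control. Against the negative control Slc40a1 fell by 2.40 in Si1 (SE 0.08, 18.9% of that level, adjusted p = 6.1e-12) and by 0.25 in Si6 (SE 0.08, 84.2%, adjusted p = 0.023). The Si1 arrays lay below 6.9, the median level of all genes, and how far background signal bounds the 18.9% was not tested. The call in Si6 was lost with median centring (-0.21, adjusted p = 0.084) and without negative control replicate a (-0.19, adjusted p = 0.111), Si6 replicate a (-0.22, adjusted p = 0.08) or Si6 replicate c (-0.21, adjusted p = 0.092). The direct difference, Si1 against Si6, was -2.16 ± 0.08 (adjusted p = 6.0e-11), and 0.0812% of genes differed more in either direction. Against normoxia, Si1 was lower by a log2 fold change of -0.91 ± 0.08 (adjusted p = 1.1e-07) and Si6 higher by 1.25 ± 0.08 (adjusted p = 8.5e-09).

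By the brighter of its 2 probe sets Hif1a was also lower in Si1 than in Si6, by a log2 difference of -0.28 ± 0.06 (adjusted p = 0.001). With the mean of its probe sets the difference was -0.11 and did not pass (adjusted p = 0.173). The averages of the melanocyte and fibroblast markers were lowest in Si1 as well, as given above, though not every marker was. Pmel, Mlana, Kit, Slc45a2 and Lum had their lowest group mean in the negative control, and Pdgfra in the hypoxia control. The part of Hif1a or of either marker average in the Slc40a1 difference was not tested.

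**Figure D2:**
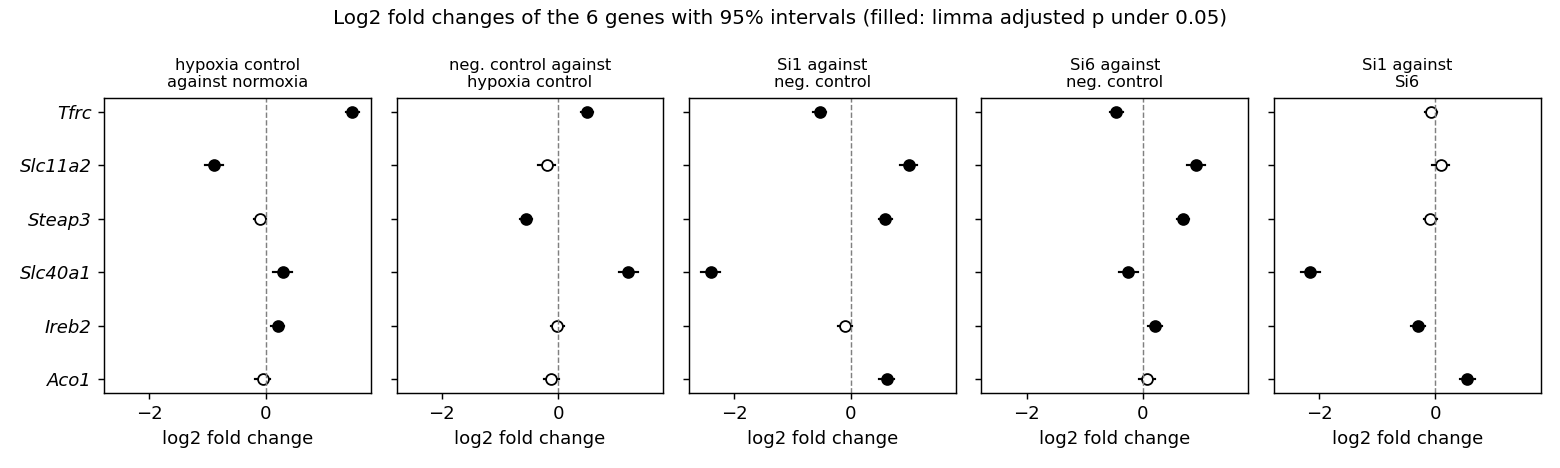
Log2 fold change (points) and its 95% interval (lines) for each of the 6 genes in 5 comparisons, with filled points for limma adjusted p under 0.05. Tfrc and Slc11a2 changed by nearly the same amount with Si1 and Si6, while Slc40a1 was at -2.40 with Si1 and -0.25 with Si6.

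Ireb2, which encodes IRP2, moved little. It read 9.66, 9.64 and 9.69 in normoxia, 9.89, 9.82 and 9.90 in the hypoxia control and 9.90, 9.91 and 9.77 in the negative control. The normoxia arrays lay below all 6 others. The rise was 0.21 ± 0.06 in the hypoxia control (1.15-fold, adjusted p = 0.013) and 0.20 ± 0.06 in the negative control (adjusted p = 0.012). The first was lost without hypoxia control replicate c (0.19, adjusted p = 0.055) or normoxia replicate b (0.19, adjusted p = 0.05), and the second without negative control replicate a (0.18, adjusted p = 0.052) or b (0.17, adjusted p = 0.055). With the siRNAs Ireb2 read 9.83, 9.73 and 9.73 in Si1 and 10.13, 10.02 and 10.05 in Si6, so Si6 was above all other arrays. Si1 did not pass against the negative control (-0.10, interval -0.21 to 0.02, adjusted p = 0.214). Si6 rose by 0.20 ± 0.06 (adjusted p = 0.011), a call lost without negative control replicate c (0.16, adjusted p = 0.057) or Si6 replicate a (0.17, adjusted p = 0.052). The siRNAs differed from each other by -0.30 ± 0.06 (adjusted p = 5.9e-04). Against normoxia Ireb2 was higher by 0.40 ± 0.06 in Si6 (adjusted p = 3.4e-05) and at 0.10 in Si1 (adjusted p = 0.174).

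Aco1, which encodes IRP1, was raised only by Si1 among the comparisons made. It read 9.74, 9.76 and 9.93 in normoxia, 9.69, 9.75 and 9.85 in the hypoxia control and 9.63, 9.61 and 9.69 in the negative control. Normoxia and the hypoxia control overlapped, with a difference of -0.05 (interval -0.18 to 0.08, adjusted p = 0.683). The negative control was at -0.17 against normoxia (interval -0.30 to -0.04, adjusted p = 0.051), just short of the threshold. That value passed in 6 of 14 alternatives, with adjusted p from 0.018 to 0.228 over all of them. Si1 read 10.23, 10.26 and 10.32, above every other array, and Si6 read 9.77, 9.72 and 9.67. Aco1 rose by 0.62 ± 0.06 in Si1 against the negative control (1.54-fold, adjusted p = 6.7e-07) and was at 0.07 in Si6 (interval -0.06 to 0.20, adjusted p = 0.436). The difference between the siRNAs was 0.55 ± 0.06 (adjusted p = 4.3e-06).

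Counted over the 6 genes, the negative control against the hypoxia control had 2 higher (Tfrc and Slc40a1) and 1 lower (Steap3), beside 7.8% and 7.51% of all genes. Si1 against the negative control had 3 higher and 2 lower (background 20.2% higher and 14.8% lower), and Si6 had 3 higher and 2 lower (17.0% and 11.9%). Tfrc and Slc40a1 were lower, and Slc11a2 and Steap3 higher, with both siRNAs. The third rise was Aco1 with Si1 and Ireb2 with Si6. Between Si1 and Si6, 1 was higher in Si1 (Aco1) and 2 lower (Slc40a1 and Ireb2), against 14.5% and 13.4% of all genes. The siRNA comparisons share the negative control arrays, in which Tfrc, Slc40a1 and Steap3 already differed from the hypoxia control. Against normoxia, comparisons added after the data were seen, Si1 had 2 higher and 1 lower (background 21.7% and 17.4%) and Si6 3 higher and 0 lower (background 17.0% and 13.1%). In Si6 the 3 genes not called, Slc11a2, Steap3 and Aco1, had unadjusted p = 0.022, 0.4 and 0.15.

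In the order of group means, several neighbours could not be separated by their arrays. Tfrc ran from the negative control through Si6, the hypoxia control and Si1 to normoxia, and the 3 middle groups overlapped, with steps of 0.04 between neighbours. Slc11a2 ran from normoxia through Si1 and Si6 to the hypoxia control and the negative control. Si1 overlapped both normoxia and Si6, which did not overlap each other, and the hypoxic controls overlapped as well. Steap3 ran from Si6 through normoxia, Si1 and the hypoxia control with overlaps throughout, then to the negative control without one. Slc40a1 was the only one of the 6 whose 5 groups were all apart, in the order negative control, Si6, hypoxia control, normoxia and Si1. The share of all genes with 5 separate groups was not computed, so how unusual this is cannot be told.

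The genes nearest in pattern were found by the root mean squared (RMS) difference over the 15 arrays, each gene centred on its own mean, for the 5 members whose group means spanned at least 0.5. Nearest to Tfrc were Tppp3, Cfap70 and Pcyt1b, at RMS differences of 0.21, 0.22 and 0.23 log2 units, beside 0.68 for the spread of Tfrc about its own mean. Slc11a2 (own spread 0.46) was nearest to Vac14 (0.09), Snord42b (0.11) and Ide (0.12). Steap3 (own spread 0.25) was nearest to Vat1 (0.08), Itpripl2 (0.08) and Mical1 (0.10), and Aco1 (own spread 0.23) to Mybbp1a, Fyn and Igsf9b (0.06 each). Slc40a1 had no gene as close. Its nearest were Tmem71 (0.41), Acox2 (0.42) and Dynlt3 (0.44) against an own spread of 0.88.

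Beyond the 6 genes, a wider list of 77 iron genes was read from the same tests, of which 66 were measured by a probe set of their own. Transferrin and the ferritin light chain Ftl1 were among those not measured this way. In the hypoxia control against normoxia 6 of the 66 rose and 17 fell, with a median of -0.05 beside 0.00 for all genes. Si1 against the negative control gave 24 higher and 15 lower (median 0.02), and Si6 gave 25 higher and 10 lower (median 0.10), beside -0.01 for all genes in each. The background shares are those given above for the same comparisons.

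Among the genes of export and iron oxidation, Cp had the largest changes. Cp encodes ceruloplasmin, a copper ferroxidase that loads exported iron onto transferrin and is a known HIF target. It rose by 1.07 ± 0.11 in the hypoxia control (adjusted p = 2.4e-06) and was a further 1.10 ± 0.11 higher in the negative control (adjusted p = 3.1e-06). With the siRNAs it was at -2.25 ± 0.11 in Si1 (adjusted p = 2.4e-10) and -2.20 ± 0.11 in Si6 (adjusted p = 7.1e-10) against the negative control. Unlike Slc40a1, it did not differ detectably between Si1 and Si6 (-0.05, adjusted p = 0.8). Flvcr1, a heme exporter, fell by 0.52 with hypoxia (SE 0.07, adjusted p = 9.1e-05) and was higher with Si1 (0.98 ± 0.07, adjusted p = 3.9e-08) and Si6 (0.62 ± 0.07, adjusted p = 9.7e-06). Hephaestin (Heph), another ferroxidase, and the hepcidin gene Hamp did not pass in any of these comparisons.

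Of the 12 other uptake and reduction genes, 2 rose and 2 fell in the hypoxia control, beside 9.87% of all genes higher and 11.2% lower. Steap2, a relative of Steap3, fell by 0.58 (SE 0.06, adjusted p = 3.8e-06) and the siderocalin receptor gene Slc22a17 by 0.29 (SE 0.07, adjusted p = 0.008). In the negative control against the hypoxia control Steap2 was higher by 1.09 ± 0.06 (adjusted p = 2.6e-08), opposite in sign to Steap3, and Hfe, whose protein binds the transferrin receptor, was at -0.51 ± 0.06 (adjusted p = 4.7e-05). Hfe was also lower in Si1 than in Si6, by -1.06 ± 0.06 (adjusted p = 7.6e-09). Steap1 was higher with Si1 by 0.91 ± 0.07 (adjusted p = 3.2e-08) and at 0.02 with Si6 (adjusted p = 0.865).

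Of 5 storage genes measured, 1 rose and 0 fell in the hypoxia control, where 9.87% of all genes were higher and 11.2% lower. With Si1 against the negative control 1 rose and 2 fell (20.2% and 14.8% of all genes), and with Si6 0 rose and 1 fell (17.0% and 11.9%). The rise in the hypoxia control was in Ncoa4, which brings ferritin to autophagosomes (0.19 ± 0.05, adjusted p = 0.013). This call was lost with only the groups compared (adjusted p = 0.052). It was also lost without hypoxia control replicate b (0.18, adjusted p = 0.052) or normoxia replicate b (0.16, adjusted p = 0.07). The ferritin heavy chain Fth1 did not pass with hypoxia (0.06, adjusted p = 0.5), and its value with Si1 was small (-0.14 ± 0.05, adjusted p = 0.042) and did not pass in 8 of 14 alternatives. Of 6 sensing genes and mRNAs that carry IREs, Cdc14a fell with hypoxia by 0.39 (SE 0.05, adjusted p = 6.7e-05) and none rose. Fbxl5, whose protein marks IRP2 for degradation when iron is plentiful, was at -0.03 (adjusted p = 0.889) with hypoxia, -0.15 (adjusted p = 0.188) with Si1 and -0.01 (adjusted p = 0.972) with Si6. Epas1, which encodes HIF-2 alpha and has an IRE, fell against the negative control with both siRNAs, by 0.76 in Si1 (SE 0.08, adjusted p = 2.1e-06) and by 0.34 in Si6 (SE 0.08, adjusted p = 0.005). Si1 against Si6, it was at -0.43 ± 0.08 (adjusted p = 8.8e-04).

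Among genes of mitochondrial iron handling and iron-sulfur cluster assembly, the calls in the hypoxia control were falls, those in the negative control against normoxia went both ways, and most of those with either siRNA were rises. Of 15 mitochondrial genes 5 fell and 0 rose in the hypoxia control (median -0.17), and of 9 cytosolic ones 4 fell and 0 rose (median -0.10), beside 11.2% of all genes lower and 9.87% higher. In the negative control against normoxia 7 of the 15 fell and 2 rose (Abcb10 at 0.40, adjusted p = 3.8e-04, and Hspa9 at 0.16, adjusted p = 0.043). Only 1 rose with median centring, with only the groups compared, or with any 1 of the compared arrays left out. Of the 9 cytosolic genes 4 fell and 1 rose (Ciao2b at 0.19, adjusted p = 0.025), beside 15.7% of all genes lower and 14.6% higher. The Ciao2b call was lost without negative control replicate a, normoxia replicate a or normoxia replicate c. Iscu, the mitochondrial scaffold gene, fell in the hypoxia control against normoxia by 0.64 (SE 0.06, adjusted p = 2.6e-06). In that same comparison the mitochondrial iron importer Slc25a37 (mitoferrin 1) fell by 0.60 (SE 0.06, adjusted p = 1.9e-06) and the cytosolic scaffold gene Nubp1 by 0.51 (SE 0.05, adjusted p = 3.5e-06). Against the negative control, 9 of the 15 rose and 1 fell in Si1 (median 0.46) and 11 rose and 1 fell in Si6 (median 0.27), beside 20.2% of all genes higher with Si1 and 17.0% with Si6. Of the 9 cytosolic genes 8 rose and 0 fell in Si1 (median 0.36), and 6 rose and 0 fell in Si6 (median 0.33). Against normoxia the medians of the mitochondrial and cytosolic genes were 0.29 and 0.36 in Si1. In Si6 they were 0.06 and -0.02, beside -0.02 for all genes with each siRNA.

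Nubp2 had the largest change of these genes with each siRNA, at 1.18 ± 0.05 in Si1 (adjusted p = 1.4e-10) and 0.86 ± 0.05 in Si6 (adjusted p = 8.8e-09). Isca1 was next in Si1, at 1.09 ± 0.06 (adjusted p = 2.7e-09), and stood at 0.71 ± 0.06 in Si6 (adjusted p = 5.5e-07). Nubp1 was next in Si6, at 0.76 ± 0.05 (adjusted p = 3.9e-08), and stood at 0.80 ± 0.05 in Si1 (adjusted p = 9.4e-09). The glutaredoxin Glrx5 was at 1.02 ± 0.07 and 0.69 ± 0.07, and Ciapin1 at 1.04 ± 0.07 and 0.33 ± 0.07. A second, dimmer probe set of Glrx5 read -0.01 and -0.03, and one of Ciapin1 -0.26 and -0.13, so the probe sets of these genes disagreed. In the negative control against the hypoxia control 3 of the 9 cytosolic genes fell and 0 rose, beside 7.51% of all genes lower and 7.8% higher. They were Nubp2 (-0.50 ± 0.05, adjusted p = 6.4e-06), Mms19 (-0.29 ± 0.06, adjusted p = 0.002) and Ciao3 (-0.24 ± 0.07, adjusted p = 0.021).

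**Figure D3:**
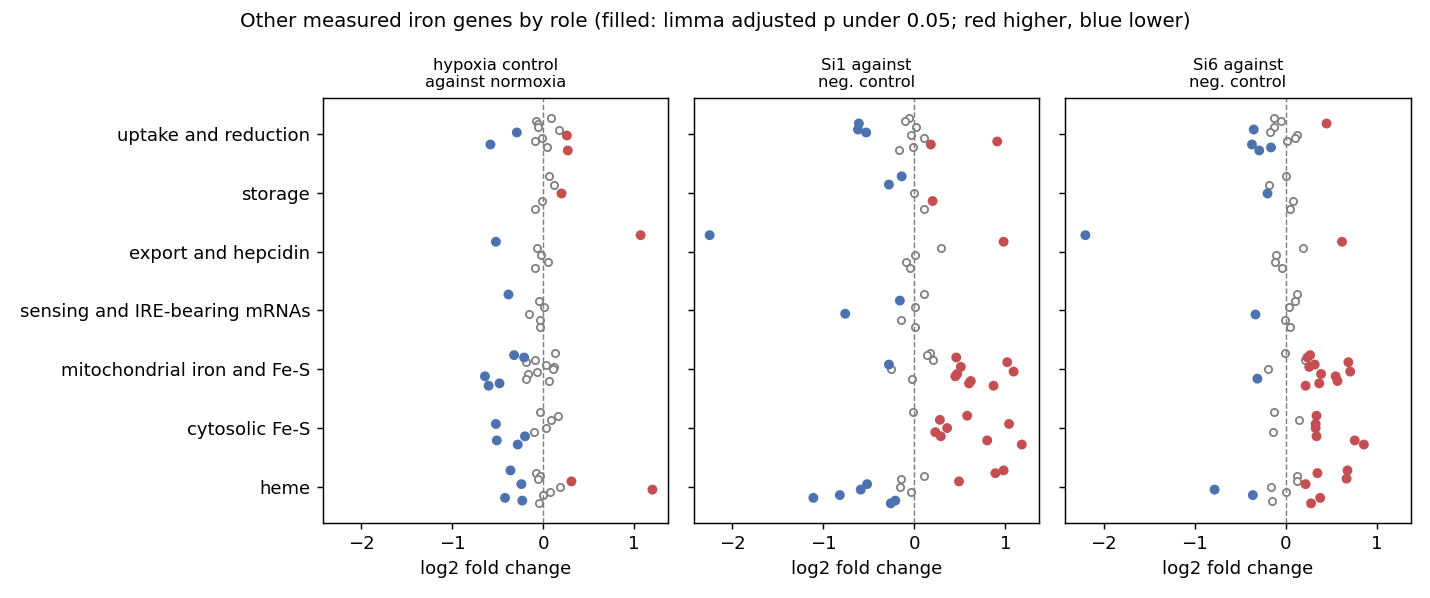
Log2 fold changes of the 66 measured genes of the wider iron list, by role, in 3 comparisons; each point is a gene, filled (red higher, blue lower) where limma adjusted p is under 0.05. Against the negative control, mitochondrial and cytosolic iron-sulfur genes lie mostly to the right of 0 with both siRNAs. The point far to the left in the export row is Cp at -2.25 and -2.20.

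In heme metabolism, the gene of the heme-degrading enzyme Hmox1 rose in the hypoxia control by 1.2 ± 0.06 (adjusted p = 7.9e-10). This was 1 of 2 rises among 13 genes, of which 4 fell, beside 9.87% of all genes higher and 11.2% lower. Hmox1 releases iron from heme and is a textbook HIF and stress target. It was lower with Si6 by a log2 fold change of -0.78 ± 0.06 (adjusted p = 6.3e-08) and with Si1 by -0.59 ± 0.06 (adjusted p = 5.4e-07). Of the 13 heme genes 3 rose and 6 fell in Si1 (median -0.16; 20.2% and 14.8% of all genes). In Si6 6 rose and 2 fell (median 0.13; 17.0% and 11.9%). Alad, an early enzyme of heme synthesis, was higher by 0.98 ± 0.07 in Si1 (adjusted p = 1.1e-08) and 0.68 ± 0.07 in Si6 (adjusted p = 1.0e-06). Other genes of heme synthesis went other ways. Ppox was at -0.82 ± 0.06 in Si1 (adjusted p = 1.6e-08) and -0.36 ± 0.06 in Si6 (adjusted p = 1.2e-04). Fech was at -0.52 ± 0.05 (adjusted p = 1.5e-06) and 0.22 ± 0.05 (adjusted p = 0.006). Slc48a1, a heme transporter of endosomes and lysosomes, was at -1.11 ± 0.06 in Si1 (adjusted p = 4.5e-10) and 0.38 ± 0.06 in Si6 (adjusted p = 6.8e-05). Si1 against Si6, Slc48a1 was at -1.49 ± 0.06 (adjusted p = 8.3e-11), with the sign that Slc40a1 had.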

How the data were processed

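The authors deposited 1 table of log2 intensities for 41345 probe sets on 15 arrays. The submitters' processing notes list RMA and Partek, with neither versions nor settings; filters and build are not stated there. RMA equalises array distributions and compresses changes of dim genes, so a shift of all genes together would not be seen. Array medians were 6.52 to 6.61. Probe sets with exactly 1 gene symbol in the platform annotation (23521) were kept, and the brightest stood for each of 22180 genes. One model with 5 group means was fitted across the 15 arrays in limma 3.58.1 (R 4.3.3), tested on simulated data. Having only 3 arrays a group limits precision, and p-values measure the spread between the cultures of this line.

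The 6 genes, the wider list and the tests were chosen with earlier results of these data known. Beyond the members, the named genes were drawn from up to 2 per role and comparison with the largest change among those past the test without overlapping arrays, and the 3 nearest in pattern. Heph, Hamp, Fbxl5, Ppox and Fech, and values of named genes in further comparisons, are outside this rule and were picked after their values were seen. Alternatives were median centring, quantile normalization, no dimmest 25% of genes, mean probe sets, trend and robust or no variance moderation, only the compared groups, the replicate letter as a block, and leaving out each array. Start windows and coordinates are RefSeq's (GRCm38.p6).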

Additional observations from a re-analysis of the deposited data

Results flagged for a closer look

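The effects of Si1 and Si6, each measured against the negative control, differed in a direct test for 3 of the 6 genes. Of all genes, 27.9% were called in that test. The log2 difference, Si1 against Si6, was -2.16 for Slc40a1 (limma adjusted p = 6.0e-11), 0.55 for Aco1 (adjusted p = 4.3e-06) and -0.30 for Ireb2 (adjusted p = 5.9e-04). For each of the 3 genes the arrays of Si1 did not overlap those of Si6, and the share of all genes without overlap was not computed. Slc40a1 was far below the negative control in Si1 and close to it in Si6, Aco1 was raised in Si1 only, and Ireb2 was raised in Si6 only. No cause of these differences was tested.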

How the results depend on the processing

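Each of the 48 values (6 genes in 8 comparisons) was recomputed under 8 processing alternatives and with each of the 6 compared arrays left out, and 40 kept their side of the threshold throughout. Of these 40, 38 also kept their sign. The other two were not called and close to 0: Aco1 in the hypoxia control against normoxia (-0.05, range -0.09 to 0.01) and Ireb2 in the negative control against the hypoxia control (-0.01, range -0.03 to 0.04). The remaining 8 crossed the threshold in some alternatives, none of them after changing sign, and are given beside their results: 3 of Ireb2, 2 of Slc40a1, 2 of Slc11a2 and 1 of Aco1. With 1 array left out, the genes called in the hypoxia control against normoxia numbered 2 (without normoxia replicate b) to 4, and those in Si6 against the negative control 3 (without Si6 replicate a) to 5. The count of all genes called stayed within 1.5 times its value in every alternative. Its split by direction depended on scaling in the siRNA comparisons. With median centring, 65.1% of the calls in Si1 against the negative control were higher, in place of 57.7%. In Si6 against the negative control it was 67.7% in place of 58.9%. No pairing of the arrays by replicate letter was seen. The deviations of same-letter arrays correlated at -0.22 to 0.21 (median 0), much as those of other letters did (-0.22 to 0.23). With 3 arrays a group, a weak shared effect could have been missed. With the replicate block, 4 of the 6 genes were still called in the hypoxia control, and all 6 in the negative control against normoxia, where Aco1 joined (-0.17, adjusted p = 0.045). Of the 15 mitochondrial genes, 8 in place of 5 fell in the hypoxia control with trend and robust settings. The dim second probe sets of Glrx5 and Ciapin1 limit what those genes show.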
